A study of Mus musculus with 4 samples.

Results

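The mitochondrial carriers are the proteins of the Slc25 gene family and the uncoupling proteins Ucp1, Ucp2 and Ucp3. The family was taken as every gene whose symbol is Slc25a with a number, or Ucp1, Ucp2 or Ucp3, and that had a probe set annotated to it and to no other gene. This gave 46 genes, read by 96 probe sets, of 18193 genes on the array. Each gene was read by its brightest probe set over the 4 arrays, and differences were taken on log2(intensity + 16), where the added 16 damps the noise of dim probe sets and understates the change of dim genes. Of the 46 genes, 40 passed the level filter, which asked that the highest of the 4 values reach 20.9, the median of all values, as did 13192 genes of the whole array. The 6 that did not pass were Slc25a31, Slc25a41, Ucp1, Slc25a2, Slc25a53 and Slc25a54. Ucp2, Slc25a21, Slc25a43 and Slc25a52 had no probe set of their own and were not analysed here.

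The arrays held RNA of mouse intestinal organoids, small epithelial structures grown in Matrigel. All organoids, controls included, carried the floxed Apc genotype (Apc fl/fl). There were 4 groups with 1 array each: untreated organoids at day 4, organoids given 4-hydroxytamoxifen (4OHT) for 24 h and collected at day 4, and the same pair at day 6. 4OHT was given to recombine Apc, the scaffold gene that keeps beta-catenin low in the Wnt pathway, and the labels call the treated organoids Apc-deficient. The sources used here do not name the recombinase or give the age or number of the animals. No array analysed here held 4OHT-treated organoids without the floxed alleles, so an effect of the drug itself and of Apc loss cannot be told apart.

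Most mitochondrial carriers sit in the inner mitochondrial membrane and move metabolites, nucleotides, cofactors and inorganic ions between the cytosol and the matrix. Many exchange a substrate on one side for another on the other side, and each is built from repeats of a pair of membrane helices. In the intestine, absorptive enterocytes burn fatty acids and glutamine in mitochondria and make citrulline from glutamine, which needs carriers for acylcarnitine, glutamate, aspartate and ornithine. The ADP/ATP and phosphate carriers supply ATP synthase in every cell with mitochondria.

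The promoters printed here belong to the 2 members that passed the 4OHT test (Slc25a24 and Slc25a12), to the further member past 2-fold at day 6 (Slc25a20) and to Slc25a5, whose 8 probe sets all read lower with 4OHT. Each is the 250 bases before the transcription start in RefSeq on GRCm38.p6, written 5′ to 3′ on the strand of the gene, and capitals mark a GC box (GGGCGG) or a GABP motif (CCGGAAG) on either strand. They lie at chr3:109122899-109123148 (plus strand) for Slc25a24, chr2:71367756-71368005 (minus strand) for Slc25a12, chrX:36795347-36795596 (plus strand) for Slc25a5 and chr9:108661886-108662135 (plus strand) for Slc25a20.
Slc25a24: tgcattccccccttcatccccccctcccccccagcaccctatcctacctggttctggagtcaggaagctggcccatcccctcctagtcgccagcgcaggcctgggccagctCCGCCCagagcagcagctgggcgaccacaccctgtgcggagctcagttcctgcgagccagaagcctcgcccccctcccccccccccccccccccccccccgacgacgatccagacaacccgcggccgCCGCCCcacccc
Slc25a12: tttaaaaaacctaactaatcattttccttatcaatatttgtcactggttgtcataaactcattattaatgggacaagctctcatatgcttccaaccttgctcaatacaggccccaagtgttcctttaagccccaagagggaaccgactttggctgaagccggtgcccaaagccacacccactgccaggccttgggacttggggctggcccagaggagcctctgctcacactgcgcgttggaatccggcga
Slc25a5: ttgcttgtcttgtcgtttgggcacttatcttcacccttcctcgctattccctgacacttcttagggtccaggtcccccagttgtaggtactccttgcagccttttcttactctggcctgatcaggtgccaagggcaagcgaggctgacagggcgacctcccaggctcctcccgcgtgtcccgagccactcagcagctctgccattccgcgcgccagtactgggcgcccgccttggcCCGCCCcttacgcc
Slc25a20: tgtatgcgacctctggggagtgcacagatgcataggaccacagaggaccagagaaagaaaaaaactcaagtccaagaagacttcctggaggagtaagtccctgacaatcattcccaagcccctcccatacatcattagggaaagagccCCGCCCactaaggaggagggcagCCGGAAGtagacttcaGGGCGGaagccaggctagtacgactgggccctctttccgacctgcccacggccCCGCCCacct

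The Slc25a24 promoter held GC boxes 139 and 12 bases before the start, that of Slc25a5 a GC box 14 bases before it, and that of Slc25a20 a GABP motif at 79 bases and GC boxes at 102, 63 and 10 bases. No searched motif was found in these bases of Slc25a12. Over windows of 300 bases (250 before and 50 after the start), searched on both strands, 37 of 45 promoters of 36 members held the GC box, the motif of the Sp factors. That was 82.2% of the family's promoters against 58.8% of 13506 promoters of tested genes and 35.7% of all 32851 promoters. The E-box CACGTG, read by Myc among others, was in 8 of the family's promoters (17.8%, against 9.58% of those of tested genes and 7.15% of all). The TCF motif of the Wnt pathway (CTTTGAA or CTTTGAT) was in 3 (6.67%, against 6.33% and 8.65%). GABP motifs were in 7 (15.6%, against 15.8% and 8.86%), NRF1 motifs (GCGCA and GCGC 1 base apart) in 2 (4.44%, against 8.99% and 4.6%) and CCAAT boxes (CCAAT) in 21 (46.7%, against 37.3% and 37.4%). The ERR motif TCAAGGTCA and the DR1 motif (2 copies of AGGTCA 1 base apart) were in 0 of the family's promoters, and in 0.423% and 0.0396% of all promoters. These are matches of letters, and genes with several starts count more than once.

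Epithelial identity was checked first. All 10 epithelial markers on the list (Epcam, Cdh1, Vil1 and keratins among them) passed the level filter, with a summed intensity of 16078 to 31282 per array. The immune list passed in 5 of 8 markers with sums of 176 to 224, and the fibroblast and endothelial list in 8 of 10 with sums of 154 to 285. Of the brown fat markers 2 of 6 passed, of the striated muscle markers 4 of 9 and of the germ cell markers 1 of 7. Enterocyte markers moved with treatment and with time: their summed intensity was 4510 in untreated and 1654 in 4OHT organoids at day 4, and 19229 and 8139 at day 6. The 3' minus 5' difference of control probe sets, a measure of RNA quality, was larger with 4OHT by 0.94 (Actb) and 0.87 (Gapdh) log2 units at day 4 and by 0.62 and 0.56 at day 6.

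4OHT against untreated was tested with limma over all 4 arrays with day as an additive term, and p-values were adjusted (Benjamini-Hochberg) over 13192 genes. The error joins a gene's own difference between the days (1 residual degree of freedom) with a spread pooled over all genes tested (15.24 prior degrees). Of the 40 members, 2 fell (5.0%, against 2.25% of all genes tested) and 0 rose (against 0.97%). At an unadjusted p below 0.05, 6 were lower and 1 was higher, beside 1835 of the 13192 genes tested in either direction. Slc25a24 and Slc25a12 were the members that fell, and the median over the 40 members was 0.01 log2 units against 0.02 over all genes tested. Since each group has 1 array, the p-values measure the spread between these arrays alone. Most of the error is the pooled spread, so the SE is nearly the same for most members. Fewer cells of a type and less RNA per cell cannot be told apart in such bulk RNA.

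Slc25a24 encodes a calcium-regulated carrier that exchanges ATP-Mg for phosphate and so sets the adenine nucleotide pool of the matrix. Its intensity was 386 in untreated and 184 in 4OHT organoids at day 4, and 1159.5 and 549.5 at day 6. Both 4OHT arrays read below the untreated array of their day by a like amount, and both day 6 arrays read above both day 4 arrays. The log2 differences with 4OHT were -1.01 at day 4 and -1.06 at day 6, and limma gave -1.03 ± 0.21 (SE, adjusted p = 0.00954). It was the single member at least 2-fold lower on both days, as were 0.796% of all genes. Its dimmer probe set read 20.1 and 20.3 at day 4 and 138 and 25.2 at day 6, so it showed the lower level at day 6 (-1.90) and 0.00 at day 4.

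Slc25a12 encodes the calcium-activated aspartate/glutamate carrier aralar, a step of the malate-aspartate shuttle that brings reducing equivalents of cytosolic NADH into mitochondria. Its intensity was 41.5 in untreated and 14.9 in 4OHT organoids at day 4, and 65.3 and 31.9 at day 6. Both 4OHT values lay below both untreated values. The log2 differences were -0.90 and -0.76, and limma gave -0.83 ± 0.21 (SE, adjusted p = 0.0388). The 4OHT value of day 4 lay below 20.9. The other probe sets of this gene stayed below the level filter, and the mean of all its probe sets gave -0.34 (adjusted p = 0.40 in limma). The call of Slc25a12 was lost in 7 and that of Slc25a24 in 4 of 11 other ways of processing. With any 1 of the 4 arrays left out neither was called: Slc25a24 then lay between -1.81 and -0.26 and Slc25a12 between -1.15 and -0.51, in fits that have no day term.

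**Figure D1:**
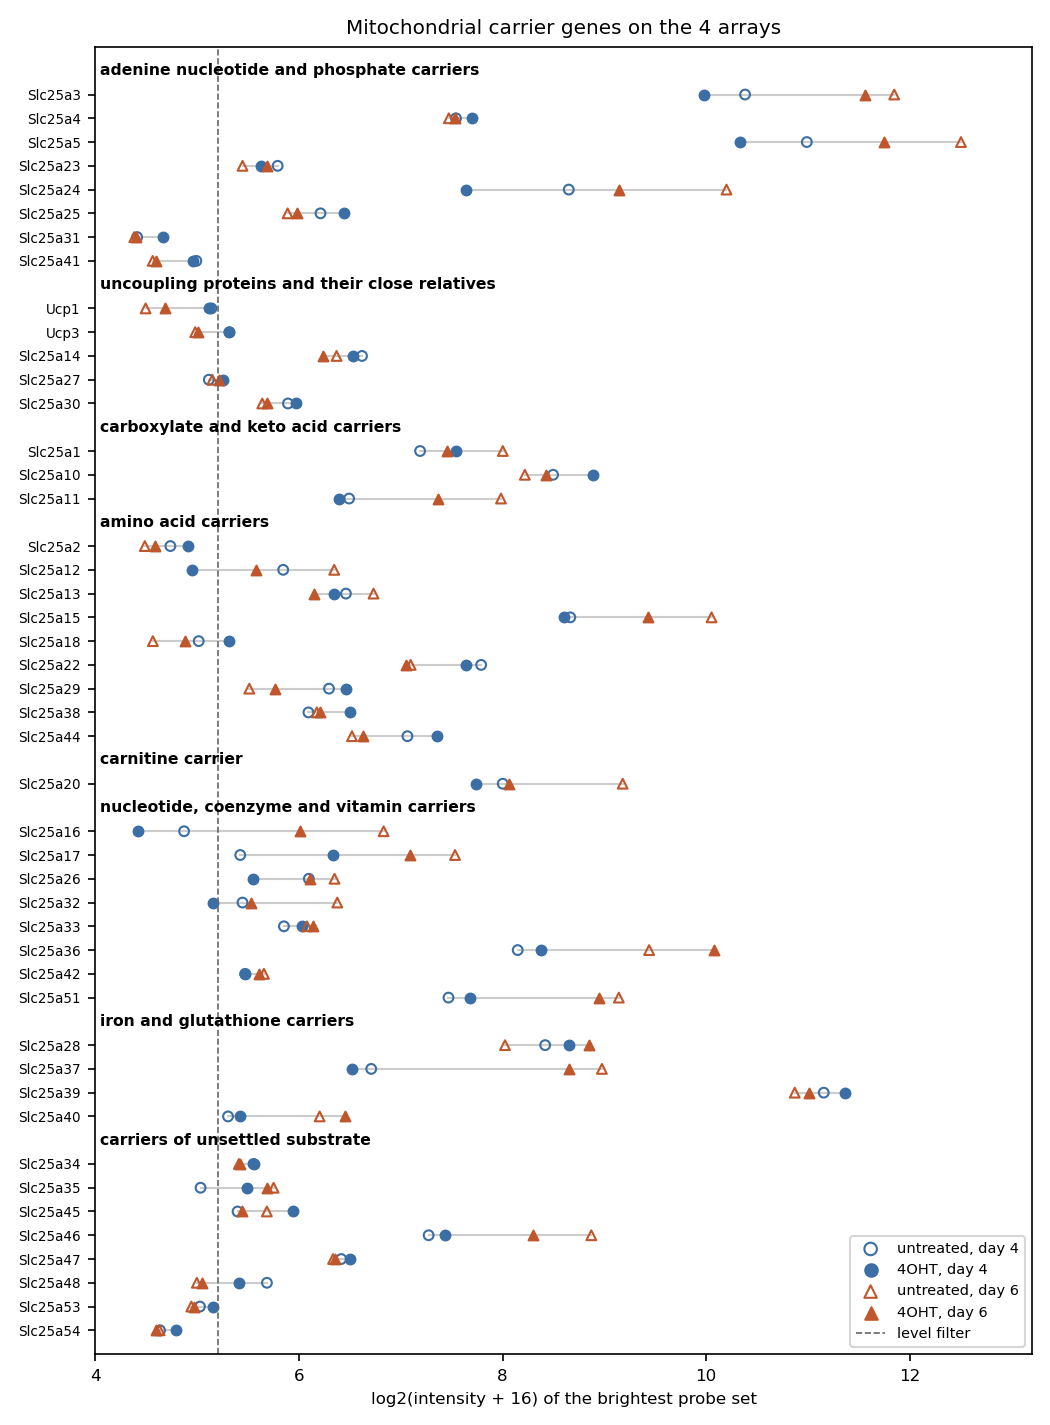
Level on each of the 4 arrays as log2(intensity + 16) (x axis) of the 46 carriers by role, with open symbols for untreated, filled for 4OHT, circles for day 4, triangles for day 6 and a dashed line at the level filter. Slc25a24 and Slc25a12 read lower with 4OHT on both days, and the triangles of Slc25a37 lie above its circles; levels of different genes are read by different probes and are not comparable.

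Among the other carriers of adenine nucleotides and phosphate, Slc25a5, an ADP/ATP carrier of many tissues, came nearest to the threshold. Its intensity was 2015 in untreated and 1277 in 4OHT organoids at day 4, and 5786 and 3425 at day 6. The log2 differences were -0.65 and -0.75, and limma gave -0.70 ± 0.21 (SE), which missed the threshold (adjusted p = 0.0895). All 8 of its probe sets read lower with 4OHT on both days, by 0.30 to 0.95 log2 units at day 4 and by 0.48 to 0.75 at day 6, although most of them are of a design that can also bind close copies of the gene. Slc25a3, the phosphate carrier that feeds ATP synthase, read 1318 and 991 at day 4 and 3666 and 3010 at day 6, a limma difference of -0.34 ± 0.21 (SE, adjusted p = 0.515). Slc25a4, the ADP/ATP carrier of heart and muscle, read 161.5 to 192 on the 4 arrays with differences of 0.16 and 0.06. Other probe sets of Slc25a4 past the level filter gave 0.37 and -0.25, and 0.24 and -0.01. The ATP-Mg carriers Slc25a23 and Slc25a25 lay between -0.16 and 0.24, and Slc25a31 (germ cell ADP/ATP carrier) and Slc25a41 did not pass the level filter.

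Slc25a20, the carnitine/acylcarnitine carrier that brings long-chain fatty acids into the matrix for oxidation, differed at day 6. It read 240.2 in untreated and 197 in 4OHT organoids at day 4, and 564 and 252 at day 6. Its day 6 difference of -1.12 passed 2-fold, as did 2 of the 40 members on the lower side (Slc25a24 was the other) and 2.97% of all genes, while its day 4 difference was -0.26. Its second probe set gave -0.22 and -1.08. Limma over both days gave -0.69 ± 0.23 (SE, adjusted p = 0.150). On the higher side 0 of 40 members passed 2-fold on either day, against 1.0% of all genes at day 4 and 0.879% at day 6, and on the lower side at day 4 1 member did, against 1.22%.

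The carboxylate carriers showed no call with 4OHT, where 2.25% of all genes fell and 0.97% rose. Slc25a10, which exchanges malate or succinate for phosphate, read 345 and 459 at day 4 and 282 and 328 at day 6. Its differences were 0.40 and 0.21 (limma 0.30 ± 0.21, SE, adjusted p = 0.590), but its other probe set gave 0.27 and -0.47. Slc25a11, the oxoglutarate/malate carrier and partner of Slc25a12 in the malate-aspartate shuttle, read 74.0 and 68.2 at day 4 and 237 and 149 at day 6, differences of -0.10 and -0.62. Slc25a1, the citrate carrier that exports acetyl units for lipid synthesis, had differences of 0.35 and -0.55, opposite in sign on the days.

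Of the 8 tested amino acid carriers, Slc25a12 fell, where 2.25% of all genes did, and the others did not pass. Slc25a13, the second aspartate/glutamate carrier (citrin), read 72.1 and 65.4 at day 4 and 90.3 and 55.1 at day 6, differences of -0.11 and -0.58. Slc25a15, the ornithine carrier of the urea and citrulline pathway, read 389.8 and 372 at day 4 and 1046 and 673 at day 6, differences of -0.06 and -0.62 (limma -0.34 ± 0.22, SE, adjusted p = 0.548). Both lay within 0.12 log2 units of 0 at day 4 and below it at day 6, but the dimmer probe set of Slc25a15 gave 0.29 and -0.74. The glutamate carriers Slc25a18 and Slc25a22 differed by 0.29 and 0.31 and by -0.15 and -0.05, the glycine carrier Slc25a38 by 0.41 and 0.04, and the basic and branched-chain amino acid carriers Slc25a29 and Slc25a44 by 0.10 to 0.29.

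Among carriers of nucleotides, coenzymes and vitamins, 0 of 8 passed for 4OHT, where 2.25% of all genes fell and 0.97% rose. These carriers pointed both ways. Slc25a16, linked to coenzyme A in the matrix, read 13.3 and 5.35 at day 4 and 97.9 and 48.5 at day 6, differences of -0.46 and -0.82 (limma -0.64 ± 0.21, SE, adjusted p = 0.143). Slc25a32, the folate and FAD carrier, read 27.6 and 19.6 at day 4 and 67.1 and 30.2 at day 6, differences of -0.29 and -0.84. Slc25a36, a pyrimidine nucleotide carrier, lay the other way with 268 and 316 at day 4 and 678 and 1062 at day 6, differences of 0.23 and 0.63 (limma 0.43 ± 0.21, SE, adjusted p = 0.394), but its other 2 probe sets gave -0.68 and -0.35, and -0.22 and 0.06. Slc25a26, which imports S-adenosylmethionine, differed by -0.54 and -0.24. Slc25a33 and Slc25a42 lay between -0.05 and 0.17 on both days.

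The iron carriers lay on opposite sides of 0, and neither passed. Slc25a28 (mitoferrin-2), the iron importer of non-erythroid cells, read 326 in untreated and 387 in 4OHT organoids at day 4 and 244 and 444 at day 6. Both 4OHT values lay above both untreated values, with differences of 0.24 and 0.82, and limma gave 0.53 ± 0.22 (SE, adjusted p = 0.281), the member nearest to a rise. Slc25a37 (mitoferrin-1), the importer known from erythroid cells, differed by -0.19 and -0.32. Slc25a39, which imports glutathione, read 2263 and 2623 at day 4 and 1855 and 2049 at day 6, differences of 0.21 and 0.14. Of its 5 probe sets 3 lay above 0 at day 4 and 4 at day 6, over spans of -0.56 to 0.32 and -0.20 to 0.96. Slc25a40, a relative of Slc25a39, differed by 0.12 and 0.25. By their brightest probe sets, the uncoupling protein relatives Ucp3, Slc25a14, Slc25a27 and Slc25a30 all lay within 0.14 log2 units of 0 on both days. The other probe set of Ucp3 gave -0.50 at day 4 and 0.30 at day 6. Other probe sets of Slc25a30 past the level filter gave 0.37 and 0.08, and 0.32 and 0.29. Slc25a14 read 82.3 and 76.2 at day 4 and 66.6 and 59.3 at day 6, and Slc25a47, of unsettled substrate, read 69.3 and 74.5 and then 64.7 and 65.6. Slc25a34 differed by 0.01 on both days and Slc25a35 by 0.45 and -0.07.

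Across the 40 members the 4OHT differences of the days, which share no array, had a Pearson correlation of 0.53 and a Spearman correlation of 0.54, against 0.41 and 0.29 over all 13192 genes, where the points share the arrays and their scaling. The sign was the same on both days for 31 members (77.5%, against 58.0% of all genes). Of these 15 were below 0 (37.5% of members, against 26.0%) and 16 above 0 (40.0%, against 32.0%). For the family the median lay at 0.08 on day 4 and -0.05 on day 6, beside 0.06 and -0.0044 over all genes. The members therefore lay on either side of 0 with few large differences.

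**Figure D2:**
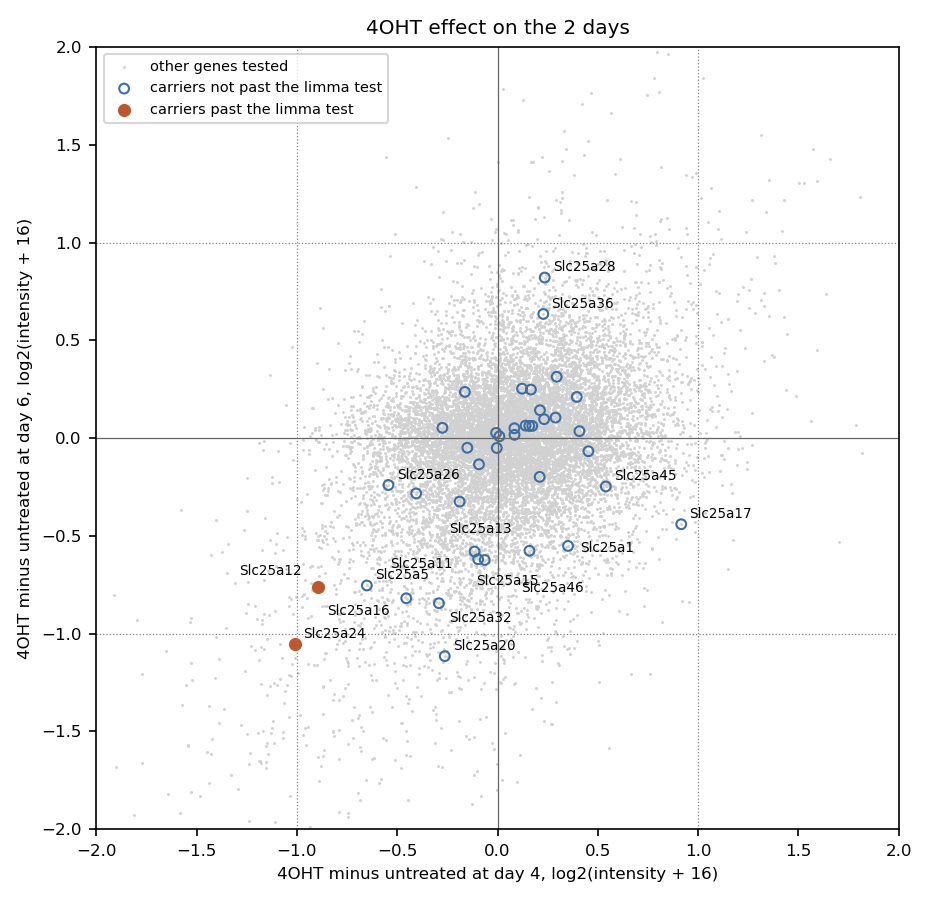
Log2 difference of 4OHT against untreated at day 4 (x axis) and day 6 (y axis), with the 40 tested carriers drawn over all tested genes and axes cut at 2 log2 units, which leaves 58 genes outside. Slc25a24 lies near -1 on both axes, Slc25a12 and Slc25a5 next to it, Slc25a20 low at day 6, and Slc25a17 and Slc25a1 on opposite sides of 0 on the days.

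More carriers passed the test between day 4 and day 6 than with 4OHT. With 4OHT as an additive term, limma called 15 of 40 members higher at day 6 (37.5%, against 35.1% of all genes) and 4 lower (10%, against 18.8%), so the family's share of rises was close to that of the array. The 3' minus 5' difference of the control probe sets also moved with time: that of Actb was 2.96 untreated and 3.90 with 4OHT at day 4 (1.72 and 2.34 at day 6), and that of Gapdh 1.42 and 2.29 (0.86 and 1.42 at day 6). Enterocyte markers were higher at day 6 too, and the part of either in the changes over time was not tested. The scaling between the days is not known. The median day effect over all genes was 0.10 as deposited, 0.21 after centring each array on its median and -0.16 after quantile normalization. The 15 rises and 4 falls were called from these day effects, so their side of the median as deposited was set beforehand. Centring shifts every gene alike and leaves the distances to the median as they were. Relative to the median, the rises spanned 0.46 to 2.09 as deposited and 0.33 to 1.84 after quantile normalization. Under quantile normalization 12 of the 15 rises and 3 of the 4 falls kept their call.

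The single-arm contrasts, with 1 array on each side, have no test. At least 2-fold higher at day 6 were 12 members in untreated organoids (30.0%, against 24.1% of all genes) and 8 with 4OHT (20%, against 16.4%), and 7 were so in both arms (17.5%, against 14.0%). On the lower side 0 members passed 2-fold in either arm, against 5.29% and 2.69% of all genes and 1.88% in both arms. The family median over time was 0.24 untreated and 0.08 with 4OHT, beside 0.16 and 0.04 over all genes, but it was 0.06 and -0.13 after quantile normalization, beside -0.13 and -0.15.

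Slc25a37 had the largest day effect of the members on the deposited scale with the added 16, while Slc25a16 was ahead of it with an added 1 (2.88 against 2.39) and after quantile normalization (1.69 against 1.67). It read 88.7 in untreated and 75.8 in 4OHT organoids at day 4, and 487 and 386 at day 6, and both day 6 arrays lay far above both day 4 arrays. Limma gave a day effect of 2.20 ± 0.21 (SE, adjusted p = 9.85e-07), a 4.59-fold difference. Slc25a40 rose too, from 23.5 and 27.0 to 57.6 and 71.7 (0.96 ± 0.21, SE, limma adjusted p = 0.00121), while Slc25a28 (-0.10) and Slc25a39 (-0.32) did not pass.

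Of the 6 tested adenine nucleotide and phosphate carriers 3 rose with time, where 35.1% of all genes did, and each was higher at day 6 in both arms. The day effect was 1.53 ± 0.21 (SE) for Slc25a3 (limma adjusted p = 2.26e-05), the same for Slc25a24 (adjusted p = 2.23e-05) and 1.46 ± 0.21 for Slc25a5 (adjusted p = 3.34e-05), so each was 2.76 to 2.88-fold higher at day 6. Slc25a4, Slc25a23 and Slc25a25 did not pass, at -0.12, -0.15 and -0.39. Since Slc25a24 and Slc25a5 were higher with time and lower with 4OHT, their 4OHT arrays at day 6 (549.5 and 3425) still read above the untreated arrays at day 4 (386 and 2015).

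In the coenzyme group 5 of 8 rose with time, where 35.1% of all genes did. Slc25a16 gained 1.78 ± 0.21 (SE, limma adjusted p = 7.01e-06), and Slc25a36 1.49 and Slc25a51 1.47 (adjusted p = 3.53e-05 and 4.17e-05). Slc25a16 passed the level filter through its day 6 values alone. Slc25a51, the carrier that brings NAD into mitochondria, read 161 and 189 at day 4 and 549 and 476 at day 6. Slc25a17, a peroxisomal carrier of coenzyme A and related cofactors, rose by 1.43 ± 0.27 (SE, adjusted p = 3.64e-04) from 26.9 and 64.9 to 169 and 120.4, but its other probe set read lower with time, by 0.77 untreated and by 0.45 with 4OHT. Slc25a32 rose by 0.65 ± 0.22 (SE, adjusted p = 0.0199).

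Of the shuttle carriers, Slc25a11 rose by 1.23 ± 0.22 (SE, limma adjusted p = 2.30e-04), Slc25a15 by 1.11 ± 0.22 (adjusted p = 5.91e-04), Slc25a20 by 0.75 ± 0.23 (adjusted p = 0.0134) and Slc25a12 by 0.57 ± 0.21 (adjusted p = 0.0316). The gain of Slc25a20 was 1.18 in untreated organoids and 0.33 with 4OHT, and a difference between the arms was not tested. Slc25a46, an outer membrane member linked to mitochondrial shape, read 139 and 157 at day 4 and 452 and 298 at day 6 (1.23 ± 0.23, SE, adjusted p = 3.28e-04).

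Of the 4 members that fell with time 3 were amino acid carriers. Of the 8 amino acid carriers tested, 3 fell and 2 rose, where 18.8% of all genes fell and 35.1% rose. Slc25a29 read 62.5 and 72.1 at day 4 and 29.6 and 38.2 at day 6 (-0.74 ± 0.21, SE, limma adjusted p = 0.00743), and 4 of its 5 probe sets read lower in untreated and all 5 in 4OHT organoids. Slc25a22, a glutamate carrier, read 205 and 183 and then 121 and 116 (-0.64 ± 0.21, SE, adjusted p = 0.0171). Slc25a44, the branched-chain amino acid carrier, read 118 and 148 and then 75.8 and 82.7 (-0.64 ± 0.21, SE, adjusted p = 0.0182), yet another of its probe sets read 1.65 and 0.84 higher at day 6, and the mean over its probe sets was 0.04 (adjusted p = 0.867). Slc25a48, of unsettled substrate, read 35.4 and 26.5 and then 15.9 and 17.1 (-0.52 ± 0.21, SE, adjusted p = 0.0467). It passed the level filter through its day 4 values alone, since both day 6 values lay below 20.9. In each of these genes both day 6 values lay below both day 4 values. Of 11 other ways of processing (10 for Slc25a48), the day call was lost in 6 for Slc25a48, 5 for Slc25a20, 4 for Slc25a12, 3 for Slc25a32 and 1 each for Slc25a15, Slc25a17 and Slc25a29, and Slc25a44 lost it in 1 and changed sign in another. Without the untreated or the 4OHT array of day 4 the calls for day were lost, in fits with 1 array at day 4. The day effect was then 1.01 and 0.12 for Slc25a12 and -0.57 and -0.72 for Slc25a22, with no 4OHT term in these fits.

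**Figure D3:**
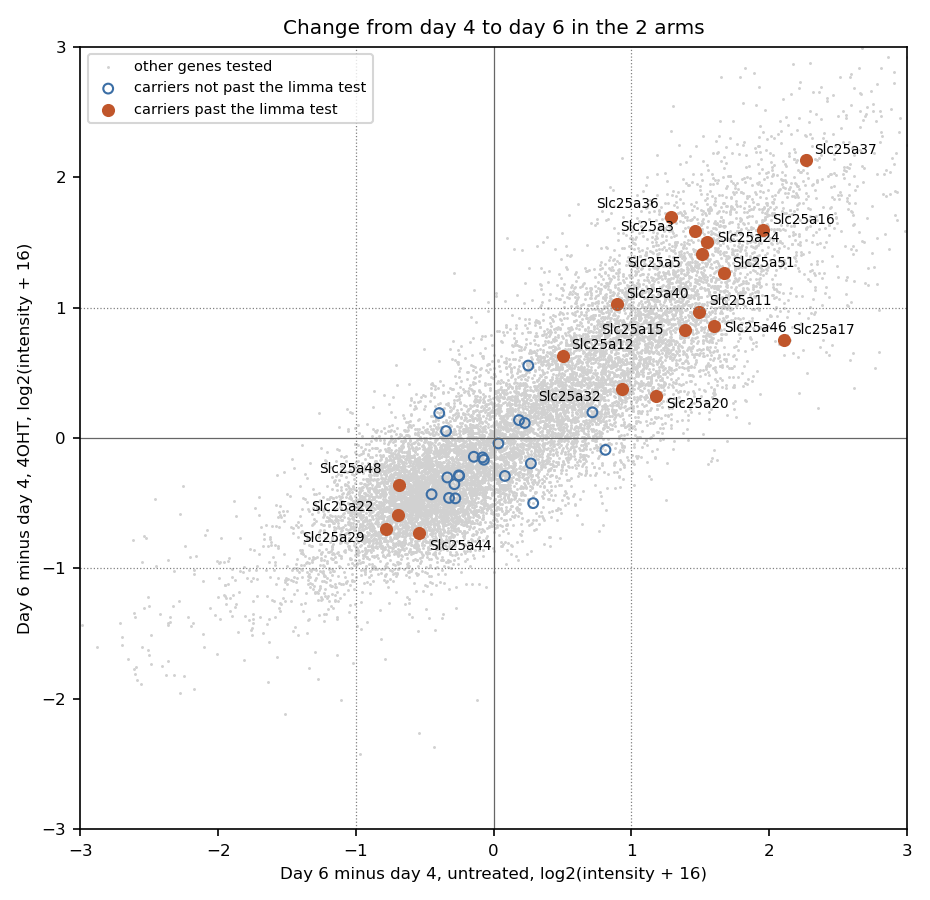
Log2 difference of day 6 against day 4 in untreated (x axis) and 4OHT organoids (y axis), with the 40 tested carriers over all tested genes and axes cut at 3 log2 units, which leaves 73 genes outside. Slc25a37 lies highest in both arms, and Slc25a29, Slc25a22, Slc25a44 and Slc25a48 lie below 0 in both.

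Probe sets of a gene did not always point the same way. Of the 46 members 22 had 1 probe set and 24 several, and in 21 of these more than 1 passed the level filter. All probe sets past the filter shared a direction in 12 of the 21 for 4OHT at day 4, in 12 at day 6, in 15 over time untreated and in 16 over time with 4OHT. Slc25a3, Slc25a5, Ucp3, Slc25a20, Slc25a26, Slc25a32 and Slc25a51 held 1 direction within each of the 4 contrasts, and Slc25a17 in 0 of them.

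**Figure D4:**
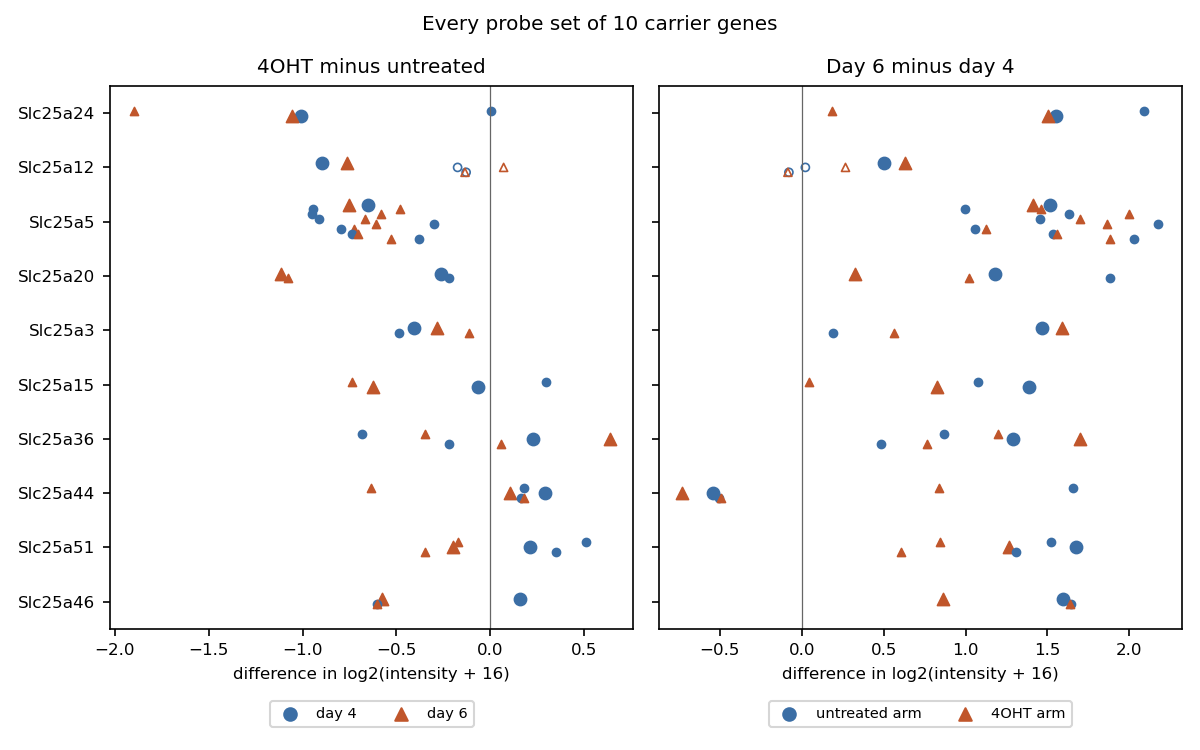
Difference in log2(intensity + 16) of every probe set of 10 carriers with several probe sets, 4OHT minus untreated on the left and day 6 minus day 4 on the right (x axes), with large symbols for the brightest and open symbols for probe sets below the level filter. The 8 probe sets of Slc25a5 all lie below 0 with 4OHT and above 0 over time, and those of Slc25a36 with 4OHT and of Slc25a44 over time lie on both sides of 0.

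Genes that work with the carriers were taken from lists chosen with earlier results of these data known. Of 14 tested genes that import carriers into the inner membrane (Tomm, Timm and Agk), 0 rose and 0 fell with 4OHT in limma. Of all genes 0.97% rose and 2.25% fell. In the import list 0 genes had an unadjusted p below 0.05, beside 1835 of the 13192 genes tested. The median of the import list was -0.01, Tomm22 lay at 0.37 and Tomm20 at -0.19. With time 9 of the 14 rose, where 35.1% of all genes did. Among the 9, Timm9 passed the level filter through its day 6 values alone (81.9 untreated and 89.8 with 4OHT). Among 15 other transporters of the mitochondrial membranes 3 fell with 4OHT, where 2.25% of all genes did. These were Mpc1, a subunit of the pyruvate carrier (-1.06 ± 0.21, SE, limma adjusted p = 0.00837), Mtch2, an outer membrane insertase (-0.84, adjusted p = 0.0362), and the channel Vdac2 (-0.81, adjusted p = 0.0484). Sfxn3, a serine transporter of the sideroflexin family, lay at 0.66 and did not pass (adjusted p = 0.114).

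Of 15 genes of the carnitine shuttle and mitochondrial beta-oxidation, which use what Slc25a20 imports, 4 fell (against 2.25% of all genes) and 0 rose (against 0.97%) with 4OHT. They were Etfa (-1.05 ± 0.21, SE, limma adjusted p = 0.00885) and Etfdh (-0.92, adjusted p = 0.0210), which pass electrons from fatty acids to ubiquinone, the dehydrogenase Acadm (-0.83, adjusted p = 0.0400) and the trifunctional protein subunit Hadhb (-0.83, adjusted p = 0.0449). Over the list the median lay at -0.14 on day 4 and -0.91 on day 6, and 12 of the 15 rose with time, where 35.1% of all genes did. Slc25a20 itself lay at -0.26 and -1.12.

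The enzymes around Slc25a12, Slc25a11 and Slc25a1 in the malate-aspartate and citrate shuttles had 0 calls of 12 with 4OHT in limma. Of all genes 2.25% fell and 0.97% rose, so 0 of 12 is near that share. At an unadjusted p below 0.05, 3 of the 12 were lower (1835 of all 13192 genes in either direction). The median of the 12 was -0.24, with Gpd1 at -0.84 (limma adjusted p = 0.0847), Idh1 at -0.76, Me2 at -0.72 and Got1 at -0.25. Around the ornithine carrier Slc25a15, 3 of 11 enzymes fell, where 2.25% of all genes did. These were Otc, which makes citrulline (-1.06 ± 0.23, SE, adjusted p = 0.0144), Oat, which makes or uses ornithine (-0.91, adjusted p = 0.0249), and the arginase Arg2 (-1.61 ± 0.41, SE, adjusted p = 0.0396). Arg2 read 14.7 and 10.7 at day 4 and 279 and 20.5 at day 6, differences of -0.20 and -3.01. It passed the level filter through the untreated array of day 6 alone. Cps1, which makes carbamoyl phosphate for citrulline, lay at -0.23.

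Of 12 genes of haem and iron-sulfur synthesis, which use what the mitoferrins import, Alas1, the first enzyme of haem synthesis, fell (-0.84, limma adjusted p = 0.0367), and the median was 0.12. Of 12 regulators of mitochondrial biogenesis Pparg fell (-0.91, adjusted p = 0.0231). Alas1 and Pparg were each 1 of 12, where 2.25% of all genes fell. Ppargc1a lay at -0.58, and Nrf1 and Pprc1 at 0.52 and 0.54, none of them past the threshold.

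**Figure D5:**
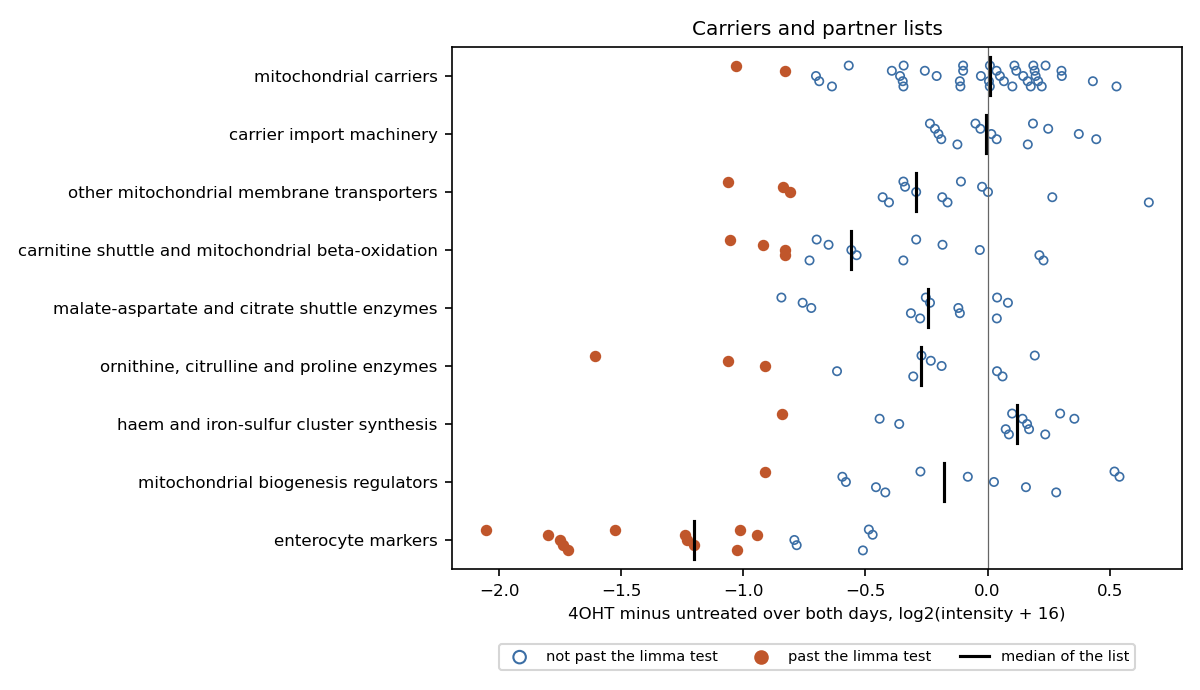
4OHT minus untreated over both days in limma (log2, x axis) of each tested gene of the carriers, the partner lists and the enterocyte markers, filled where the gene passed, with a bar at the median of each list. The median lies at 0.01 for the carriers, -0.56 for the beta-oxidation list and -1.20 for the enterocyte markers.

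Enterocyte markers fell with 4OHT and rose with time more often than the carriers did. Of 17, 12 fell with 4OHT in limma (against 2 of the 40 carriers and 2.25% of all genes). Their median was -1.20 (-1.15 at day 4 and -1.27 at day 6). With time 14 rose, against 15 of the 40 carriers and 35.1% of all genes. Among the 14, Lct passed the level filter through its day 6 values alone (68.3 untreated and 24.0 with 4OHT). Apoa4 and Slc2a2 were at -2.06 and -1.74 (adjusted p = 5.24e-05 and 5.06e-04). Of the 10 epithelial markers 0 rose and 1 fell with 4OHT, where 0.97% of all genes rose and 2.25% fell. The marker that fell was Krt20, a keratin of differentiated cells (-1.41, limma adjusted p = 0.00113). The fibroblast and endothelial, immune and germ cell markers had 0 calls with 4OHT, beside the same shares of all genes. At an unadjusted p below 0.05 these markers had 0 as well. The striated muscle marker Acta1 was higher with 4OHT (0.88, adjusted p = 0.0330), as 1 of 4 tested. The brown fat marker Cox7a1, a respiratory chain subunit, was lower (-2.02, adjusted p = 8.66e-05), as 1 of 2 tested, and Ucp1, the thermogenic uncoupling protein, read 6.52 to 19.2 and did not pass the level filter. The part of enterocyte content and of RNA quality in the lower Slc25a24, Slc25a12, Slc25a5 and Slc25a20 values was not tested.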

How the data were processed

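The authors deposited linear probe set intensity values for 45101 probe sets on each of 4 Affymetrix arrays, 1 per group, labelled from the 3' end of transcripts starting from 100 ng of RNA, per the labels' protocols. Background correction, normalization and summarisation are not given in the sources used here. Array medians were 19.3 to 22.0, and the log2 range from the 5th to the 95th percentile was 5.77 and 5.90 at day 4 and 6.89 and 6.73 at day 6.

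Gene names came from the platform annotation: 34958 probe sets had 1 gene symbol, 932 had several and named no gene, and 9211 were not listed. Values were taken as log2(intensity + 16), with the brightest probe set per gene. The level filter kept 13192 genes. The model was fitted with lmFit and eBayes of limma 3.58.1 under R 4.3.3 on 4OHT plus day (residual degrees of freedom 1, prior 15.24) at an adjusted p of 0.05. It assumes a like 4OHT effect on both days and called 128 genes higher and 297 lower with 4OHT, and 4631 higher and 2474 lower at day 6. Single contrasts have 1 array on each side and no test, and were called at 2-fold. The number of arrays limits the precision, and nothing says that they came from separate cultures.

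Values on all arrays are given for members that passed limma, reached 2-fold in a contrast, or ranked first in their role group, in 1 direction, by the smaller of the day 4 and day 6 differences, and for some others the text describes. Of each other list up to 4 genes are named by the same ranking, besides those that passed. The members, lists and rules were chosen with earlier results of these data known. Promoters came from RefSeq (GRCm38.p6), for 36 members.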

Additional observations from a re-analysis of the deposited data

Results flagged for a closer look

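For 4 members the 4OHT arrays lay on opposite sides of the untreated arrays on the days, with a gap of more than 1.5-fold between the 2 differences. The share of all genes that meet this rule was not taken, so the 4 and their shared direction have no background here. The sign was the same on both days for 77.5% of members and 58.0% of all genes. Each day has 1 array per arm, so the difference between the days was not tested. The value given is the day 6 minus the day 4 log2 difference.

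Slc25a17, the peroxisomal cofactor carrier, differed by 0.92 at day 4 and -0.44 at day 6, a gap of -1.36, and its other probe set gave -0.32 and 0.00. Slc25a1, the citrate carrier, differed by 0.35 and -0.55, a gap of -0.90, from intensities of 130.0 and 170.2 at day 4 and 240.3 and 159 at day 6. Slc25a45, of unsettled substrate, differed by 0.54 and -0.25, a gap of -0.79. Slc25a46, linked to mitochondrial shape, differed by 0.16 and -0.58, a gap of -0.74, and 1 of its 2 probe sets read below 0 on both days. In all 4 the day 6 difference was the lower.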

How the results depend on the processing

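No paired analysis was possible because the labels give no replicate numbers, apart from the day term, which sets each 4OHT array against the untreated array of its day. Fits with an array left out had no second term. Their 4OHT effect therefore also carries the day effect, and their day effect the 4OHT effect. A call lost in them does not show dependence on the array left out. The 2 falls with 4OHT became 0 with no level filter, with an added 1 or 64 in place of 16 and with no day term, 0 with each array left out (0 to 0), and 1 with a filter on the mean, the mean of all probe sets or quantile normalization. At an unadjusted p below 0.05 the fits with all arrays and a day term had 5 or 6 lower. Beside them stood 1388 of 8544 to 2050 of 18193 genes in either direction. The members called as risen with 4OHT were 0 in any fit. The 15 rises over time became 0 to 14 with an array left out, and the 4 falls became 9 with quantile normalization, 2 with no 4OHT term and 0 to 1 with an array left out. Over all genes, quantile normalization gave 2766 higher and 3232 lower at day 6 (4631 and 2474 as deposited), and centring gave 5136 and 1725.

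At day 4, members past 2-fold with 4OHT went from 0 to 1 on the higher side (quantile, an added 1, a 1.5-fold threshold) and on the lower side from 1 to 0 (mean of probe sets, an added 64, 3-fold), 2 (quantile) or 3 (an added 1, 1.5-fold). At day 6 they went from 0 to 2 on the higher side (1.5-fold) and on the lower from 2 to 0 (quantile, an added 64, 3-fold), 4 (an added 1) or 8 (1.5-fold). Over time in untreated organoids 12 higher became 4 (quantile) or 5 (3-fold), and 0 lower became 1 (without _x_at and _s_at probe sets), 4 (quantile) or 3 (an added 1, 1.5-fold). With 4OHT 8 higher became 13 (1.5-fold) or 4 (3-fold), and 0 lower became 2 (quantile) or 3 (1.5-fold). The day effect of Slc25a44 changed sign with the mean of its probe sets (0.0364), where 1 of 3 probe sets lies above 0. With an array left out, the 4OHT effect, there mixed with that of day, was -0.26 to 0.0323 for Slc25a14. It was -1.62 to 0.34 for Slc25a16 and -0.0239 to 0.12 for Slc25a47. Over all genes the calls with 4OHT (128 higher and 297 lower) became 0 and 0 with no level filter, an added 64 or no day term, where 2050, 1644 and 70 genes had an unadjusted p below 0.05. They became 7 and 40 with an added 1, 74 and 217 with quantile normalization, 62 and 183 with a filter on the mean, and 84 and 237 with the mean of probe sets. Fits with an array left out gave 0 to 8 higher and 0 to 57 lower. Apart from the construction of these settings, the cause was not tested. Slc25a12 with 4OHT at day 4 (14.9) and Slc25a16 in both arms at day 4 (13.3 and 5.35) read below the intensity of 20.9 that the level filter asks of the brightest array. Slc25a48 did so in both arms at day 6 (15.9 and 17.1).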

Other observations

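A further probe set is annotated to both Slc25a37 and Gm16867 and was left out of the family for that reason. It read 71.1 in untreated and 26.1 in 4OHT organoids at day 4 and 18.2 on both day 6 arrays, so it was lower at day 6 by 1.35 log2 units in untreated organoids, where the probe set of Slc25a37 alone was higher by 2.27. Which of the genes it reads was not tested.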
